A study of Mus musculus with 6 samples.

Results

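A group of 10 genes used to recognise stem-like and adventitial fibroblasts was followed through 6 single-cell libraries of mouse Achilles tendon: *Tppp3*, *Ly6a*, *Cd34*, *Dpp4*, *Pi16*, *Cd55*, *Cd248*, *Thy1*, *Eng* and *Scara5*. They were chosen by symbol with earlier results of these data known, each matched 1 row, and they are 10 of the 33696 genes in the tables. The levels were read in Pdgfra cells, meaning cells with at least 1 *Pdgfra* UMI (unique molecular identifier, a count of 1 captured mRNA molecule), because *Pdgfra* encodes a receptor of platelet-derived growth factor that marks fibroblast-like mesenchyme. There were 29037 such cells among 57767 cells that passed the filters. The same genes were also read in cells with at least 1 *Cdh5* UMI (VE-cadherin, endothelium) and at least 1 *Ptprc* UMI (CD45, leukocytes).

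All mice carried Gli1-CreERT2, a tamoxifen-inducible Cre under the *Gli1* promoter, and Ai9, a red reporter that Cre switches on for good, and all were given tamoxifen, the uninjured controls included. The tendon was cut (tenotomy), an injury after which cartilage and bone form in the tendon, and 24 mice were divided into uninjured, 7 days post injury (dpi) and 21 dpi, 8 per time. Cells were sorted by the reporter into Gli1+ and Gli1-. By design a Gli1+ cell expressed *Gli1* at the time of tamoxifen or descended from such a cell, and Gli1- also holds cells in which Cre did not act. The purity of the sorts was not tested. In Gli1+ uninjured, 3945 of the 7057 kept cells had a *Ptprc* UMI, against 33 of 10882 in Gli1- uninjured. Each sort at each time was 1 library of pooled mice. A time after injury therefore has no replicate pool and was not tested against uninjured, and the intervals given cover counting error only. The sorts at 1 time were taken to come from the same mice. The uninjured sorts differed in sex type, as given below, so that pair does not hold the same set of mice. The sorts of a time are not replicates of that time, but they form 3 pairs by time in which the sort could be tested. Age was not given in the sources used here.

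Most of these proteins sit on the cell surface or are anchored to it. CD34 is a sialomucin of haematopoietic, endothelial and mesenchymal progenitors, LY6A (Sca-1) is a GPI-anchored antigen of mouse stem and progenitor cells, and THY1 (CD90) is a GPI-anchored glycoprotein of fibroblasts and T cells. DPP4 (CD26) is a dipeptidyl peptidase, CD55 a GPI-anchored inhibitor of complement and CD248 (endosialin) a C-type lectin-like receptor of stromal cells. Endoglin (*Eng*, CD105) is a co-receptor for TGF-β and BMP ligands that is abundant in endothelium, and SCARA5 is a ferritin receptor. *Pi16* encodes a peptidase inhibitor that, with *Dpp4*, marks the fibroblasts of adventitia and other connective-tissue sheaths in many mouse organs. *Tppp3* is the exception to the name surface marker, as it encodes a cytosolic protein that promotes tubulin polymerisation, and it is known in tendon as a marker of sheath stem cells.

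RefSeq promoter windows of the GRCm38.p6 build were matched for 5 of the 10 genes (*Cd34*, *Cd55*, *Dpp4*, *Eng* and *Pi16*). The 250 bases before the start site are printed for *Dpp4* (chr2:62412232-62412481, minus strand), *Pi16* (chr17:29318632-29318881, plus strand) and *Cd55* (chr1:130462745-130462994, minus strand), the 3 genes whose pairs were most regularly found in the same cells below. Capitals mark matches, on either strand, to the TATA box, spelled TATAAA, to the CCAAT box, or to the GC box, spelled GGGCGG.
Dpp4: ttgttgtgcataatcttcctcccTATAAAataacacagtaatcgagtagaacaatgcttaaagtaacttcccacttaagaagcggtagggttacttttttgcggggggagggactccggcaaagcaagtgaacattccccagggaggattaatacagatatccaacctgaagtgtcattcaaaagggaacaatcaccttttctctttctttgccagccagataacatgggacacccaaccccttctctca
Pi16: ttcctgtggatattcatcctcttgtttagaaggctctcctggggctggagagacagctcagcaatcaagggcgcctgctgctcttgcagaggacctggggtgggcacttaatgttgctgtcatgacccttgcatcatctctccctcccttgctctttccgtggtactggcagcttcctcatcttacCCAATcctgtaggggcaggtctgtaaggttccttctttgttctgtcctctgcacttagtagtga
Cd55: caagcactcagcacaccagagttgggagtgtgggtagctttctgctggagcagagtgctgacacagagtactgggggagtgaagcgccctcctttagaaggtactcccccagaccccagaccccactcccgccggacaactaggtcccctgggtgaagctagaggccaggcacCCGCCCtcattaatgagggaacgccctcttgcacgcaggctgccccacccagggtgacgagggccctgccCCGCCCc
The *Dpp4* window held 1 TATA box string, near the end of the window away from the start site. The *Pi16* window held 1 CCAAT box string and the *Cd55* window 2 GC box strings, and no printed match overlapped another. Each of these letter strings was in only 1 of the 5 windows, while of 32851 windows of this length 12.4% held a TATA box, 33.8% a CCAAT box and 32.7% a GC box. The E-box string CANNTG, which reads the same on both strands and is not capitalised, was in 2 of the 5 windows (*Dpp4* and *Eng*) and in 66.2% of all windows. The GC content was 43.6% for *Dpp4*, 52.4% for *Pi16* and 64% for *Cd55*, against a median of 52.4% over all windows. The 3 genes did not have a matched string in common in this stretch, which is a description of letters and not of factor binding.

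The libraries differed in more than injury. Between 1779 and 6580 Pdgfra cells were kept per library, with a median of 5933 to 11923 UMIs per cell, the lowest in Gli1- uninjured. Of these cells, 63.6% in Gli1+ uninjured had *Xist* without Y-linked UMIs and 23.1% the reverse. Both 21 dpi libraries were female in type (94.4% and 94.8% *Xist* only), while Gli1- uninjured and both 7 dpi libraries were male in type (72.1% to 77.5% Y-linked only, at most 0.0152% *Xist* only), although the labels describe an equal distribution of the sexes. Sex and time therefore cannot be told apart at 21 dpi in the Gli1- sort. Between 27 and 75 cell barcodes, at most 0.534% of the smaller library, were shared by any pair of libraries. The 7 mesenchymal markers summed to 28757 to 53076 CPM (counts scaled to a total of 1000000 UMIs) in Pdgfra cells and all were detected. *Pdgfra*, the gating gene, was lower after injury. Gli1+ held 433 CPM of it uninjured, 231 CPM on day 7 and 278 CPM on day 21. The Gli1- values in the same order were 550, 265 and 281 CPM. In Gli1+ at 7 dpi *Dcn* was also lower (3711 against 16976 CPM) and *Col1a1* higher (15761 against 4586 CPM). Whether the gate of 1 *Pdgfra* UMI admitted the same kinds of cell before and after injury was not tested. The 8 endothelial markers summed to 25.7 to 364 CPM, highest in Gli1- uninjured. The 8 immune markers summed to 246 CPM in Gli1+ uninjured against at most 23.7 CPM elsewhere. The 6 epidermal markers summed to 2141 CPM in Gli1+ 7 dpi against 2.68 to 417 CPM in the other libraries, and *Krt5* and *Krt14* were among them. Cells with at least 2 *Krt5* UMIs and none of *Pdgfra*, *Cdh5* or *Ptprc* were counted as epidermal. They numbered 112, 2410 and 671 in Gli1+ uninjured, 7 dpi and 21 dpi, and 0, 18 and 55 in Gli1-. Whether the Pdgfra cells also included fibroblasts from outside the tendon was not tested. The part of these differences in the results below was not tested. Values without the cells concerned are given for some results, but they leave free mRNA in place.

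At both times after injury 5 of the 10 genes were lower than in uninjured tendon by at least 2-fold in both sorts: *Tppp3*, *Cd34*, *Dpp4*, *Cd55* and *Scara5*. Of all genes with at least 1 CPM, 12.3% met the same criterion at 7 dpi and 12.2% at 21 dpi. The comparisons at 7 and 21 dpi share the uninjured library of each sort. *Ly6a*, *Cd248* and *Pi16* stayed within 2-fold of the uninjured level in all 4 comparisons. *Eng* was lower in all 4, and *Thy1* was higher by at least 2-fold in Gli1- alone. No gene of the 10 was at least 2-fold higher in both sorts, against 8.99% of all genes at 7 dpi and 5.94% at 21 dpi. Taken singly, Gli1+ had 0 such genes at either time (12.7% and 7.22% of all genes) and Gli1- had 1, *Thy1* (13.1% and 11.9%). Fewer cells of a type and less mRNA per cell cannot be told apart in these sums over cells.

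**Figure D1:**
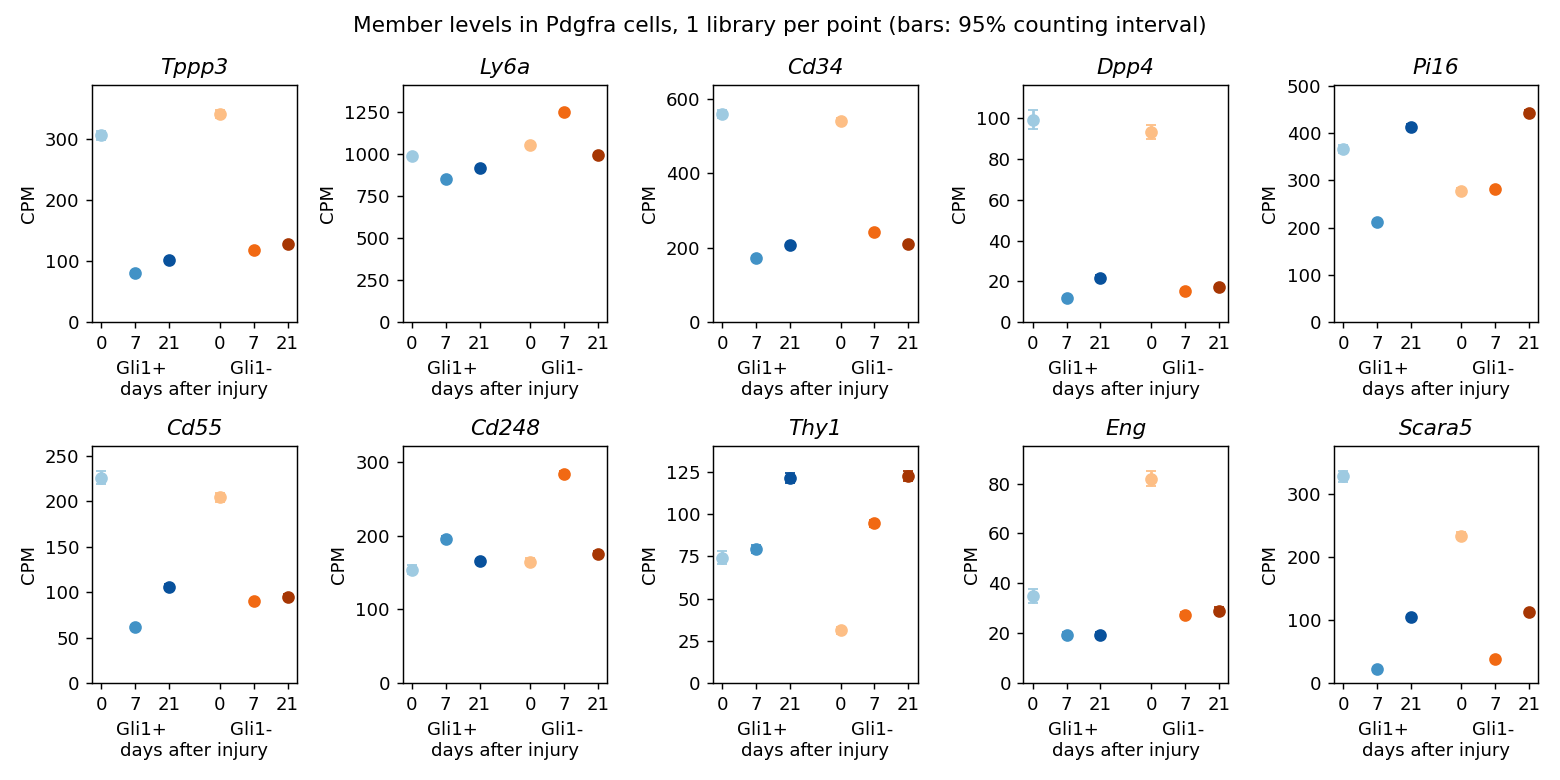
CPM of each gene (vertical axes, from 0) in the Pdgfra cells of each library, with Gli1+ at 0 (uninjured), 7 and 21 days to the left and Gli1- to the right, 1 point per library with its 95% counting interval. *Dpp4* is at 98.9 and 92.9 CPM in the uninjured libraries and at 11.8 to 21.8 CPM in the 4 injured ones, whereas *Ly6a* lies between 851 and 1255 CPM throughout.

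*Dpp4* and *Scara5* showed the largest differences of the 10 at 7 dpi in both sorts. *Dpp4* was at 98.9 CPM in Gli1+ uninjured, 11.8 at 7 dpi and 21.8 at 21 dpi, and at 92.9, 15.6 and 17.4 CPM in Gli1-. The injured libraries were all below the uninjured ones, with log2 ratios to the uninjured library of the same sort of -3.07 (95% counting interval -3.20 to -2.94) and -2.18 in Gli1+ and of -2.58 and -2.41 in Gli1-. *Scara5* was at 329 CPM in Gli1+ uninjured, 22.2 at 7 dpi and 105 at 21 dpi, and at 234, 38.5 and 113 CPM in Gli1-. It was lowest at 7 dpi in both sorts (log2 ratios -3.89 and -2.61) and at 21 dpi stood between the other levels (-1.65 and -1.06). The ligand of SCARA5 is ferritin, and the ferritin heavy chain gene *Fth1* was higher at 21 dpi, at 7935 against 4565 CPM in Gli1+ and at 8925 against 6145 CPM in Gli1-.

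*Cd34*, *Tppp3* and *Cd55* were also lower in all 4 comparisons with the uninjured library of the same sort. *Cd34* was at 558, 174 and 208 CPM in Gli1+ uninjured, 7 dpi and 21 dpi, with 541, 241 and 212 CPM for Gli1-. The uninjured libraries differed little between the sorts and all 4 injured libraries were lower, by log2 ratios of -1.68 and -1.42 in Gli1+ and -1.16 and -1.36 in Gli1-. *Tppp3* was at 305, 81.3 and 102 CPM in Gli1+ and at 340, 118 and 129 CPM in Gli1-, with log2 ratios of -1.91 and -1.58 in Gli1+ and smaller ones in Gli1- (-1.53 at 7 dpi). *Cd55* was at 226, 61.8 and 106 CPM in Gli1+ and at 204, 89.9 and 95.1 CPM in Gli1-, with log2 ratios between -1.87 and -1.09. Of these 5 genes, *Dpp4* remained past 2-fold in both sorts at both times both with trimmed mean of M-values (TMM) scaling and with a mean of per-cell CPM in place of the summed counts, and *Tppp3* with TMM. TMM raised the log2 ratios by 0.21 to 0.44, and under it *Tppp3*, *Dpp4* and *Scara5* were called at 7 dpi and *Tppp3* and *Dpp4* at 21 dpi, while the mean of per-cell CPM left *Dpp4* and *Scara5* at 7 dpi and *Tppp3* and *Dpp4* at 21 dpi. The direction of all 5 was the same under both. The share of all genes at 2-fold is not given under either, so these counts cannot be set against it.

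These levels were set beside those of epidermal cells, taken as cells with at least 2 *Krt5* UMIs and no *Pdgfra*, *Cdh5* or *Ptprc*, in which few fibroblast transcripts belong. In Gli1+ 7 dpi the 2410 epidermal cells held the 7 mesenchymal markers at 18876 CPM in sum, *Tppp3* at 92.9 CPM and *Dpp4* at 9.76 CPM, against 81.3 and 11.8 CPM in the Pdgfra cells of that library. With every cell thinned to 2000 UMIs, *Tppp3* was detected in 15.8% of the Pdgfra and 15.7% of the epidermal cells (median depths 10573 and 8896 UMIs before thinning), and *Dpp4* in 2.24% and 2.03%. *Tppp3* was thus not above the epidermal level in that library, and *Dpp4* was little above it (log2 ratio 0.27, 0.05 to 0.50). Whether free mRNA, doublets or transcription in epidermal cells gave these UMIs was not tested. *Scara5* was detected there in 5.79% against 1.14%, *Cd34* in 28.7% against 8.75% and *Cd55* in 11.4% against 4.40%. *Ly6a* (64.3% against 46.2%) and *Thy1* (13.7% against 10.1%, log2 ratio of CPM 0.61) were nearer to the epidermal level, so the *Thy1* level of Gli1+ 7 dpi given below stands close to it. In Gli1+ uninjured the epidermal cells were few (112, median 20477 UMIs). At 2000 UMIs, 9.82% of them had a *Ly6a* and 6.25% a *Tppp3* UMI, against 60.3% and 32.9% of the Pdgfra cells, and 2.68% a *Cd55* UMI, against 23.9%. No epidermal cell there had a *Thy1*, *Cd34*, *Pi16* or *Cd248* UMI after thinning (exact 95% upper limit 3.24%). Without thinning the shares were 47.3% for *Ly6a*, 37.5% for *Tppp3*, 25.9% for *Cd55* and 24.1% for *Thy1*, against 77.4%, 62.2%, 48.2% and 33.7% of the Pdgfra cells.

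*Ly6a*, *Pi16* and *Cd248* were within 2-fold of their uninjured level in the summed counts. The largest departure over the 4 comparisons was smaller for *Ly6a* than for *Pi16* or *Cd248*. *Ly6a* was at 990.3, 851 and 919 CPM in Gli1+ and at 1055, 1255 and 999 CPM in Gli1-, the most abundant of the 10 in every library. Its log2 ratios ran from -0.22 to 0.25, and with TMM scaling all 4 were above 0 (0.07 to 0.46), so no direction can be given. *Pi16* was at 367, 212 and 414 CPM in Gli1+ and at 279, 283 and 443 CPM in Gli1-, highest at 21 dpi in each sort. Its log2 ratios were -0.79 (-0.84 to -0.75) at 7 dpi and 0.17 at 21 dpi in Gli1+, and 0.02 and 0.67 in Gli1-, where the mean of per-cell CPM gave 1.07 at 21 dpi, past 2-fold. *Cd248* was at 154, 195 and 165 CPM in Gli1+ and at 165, 284 and 176 CPM in Gli1-, highest at 7 dpi in each sort. Its log2 ratio of 0.78 in Gli1- at 7 dpi (0.74 to 0.83) was below 2-fold, whereas that of the mean of per-cell CPM was 1.19.

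*Thy1* and *Eng* differed between the sorts before injury. *Thy1* was at 74.3, 79.3 and 122 CPM in Gli1+ and at 31.2, 94.8 and 123 CPM in Gli1-. The sorts were alike after injury and apart before it, so the log2 ratio to uninjured was 1.60 at 7 dpi and 1.98 at 21 dpi in Gli1- and 0.09 and 0.71 in Gli1+. In Gli1- uninjured, *Thy1* was detected in 4.28% of Pdgfra cells thinned to 2000 UMIs, and in 11.4% of those of Gli1+ uninjured. *Eng* was at 34.9, 19.3 and 19.2 CPM in Gli1+ and at 81.9, 27.5 and 29.1 CPM in Gli1-. Its log2 ratios came to -0.85 and -0.86 for Gli1+, and to -1.58 and -1.49 for Gli1-. Of the Pdgfra cells of Gli1- uninjured, 850 also had a *Cdh5* UMI. Without cells of a second class *Eng* there was at 73.7 CPM, and its log2 ratios were -1.58 at 7 dpi and -1.57 at 21 dpi, as large as with them. Between the sorts of 1 time, *Thy1* was higher in Gli1+ uninjured by a log2 ratio of 1.25 (13.8% of genes were at least 2-fold higher) and *Eng* lower by 1.23 (5.12% were at least 2-fold lower). In cells with Y-linked and no *Xist* UMIs the ratios were 1.07 for *Thy1* and -0.83 for *Eng*, the latter no longer 2-fold, and in cells with a *Prrx1* UMI that of *Thy1* was 0.91. Of the Pdgfra cells, 172 in Gli1+ uninjured and 10 in Gli1- uninjured had a *Ptprc* UMI. Without cells of a second class, *Thy1* differed by 1.16 and *Eng* by -1.10. Leaving such cells out does not remove free mRNA, whose part was not tested. The epidermal cells of Gli1+ uninjured, taken without a *Ptprc* UMI, had *Thy1* at 17.7 CPM. At 7 and 21 dpi no gene of the 10 differed 2-fold between the sorts, against 4.01% and 1.30% of all genes higher and 1.60% and 1.82% lower in Gli1+. Over all 3 times, 1.55% of genes were higher and 0.828% lower by 2-fold at each time, and none of the 10. The sort was also tested over the 3 pairs with edgeR's quasi-likelihood test and time as a block (2 residual degrees of freedom), a test added after seeing the data. Of 16190 genes, 0 passed an adjusted p of 0.05 and 1476 (9.12%) had an unadjusted p under 0.05, among them *Eng* (log2 difference -0.83, Gli1+ minus Gli1-, adjusted p = 0.352 by edgeR) and *Tppp3* (-0.39, adjusted p = 0.377 by edgeR). *Thy1*, which was higher in Gli1+ only before injury, had a difference of 0.26 (adjusted p = 0.76 by edgeR). In the uninjured pair, 68.7% of all kept Gli1+ cells had *Xist* without Y-linked UMIs, against 0% of those of Gli1-. No such female-type cell was thus found in Gli1- uninjured, and the block for that time does not pair the same set of mice.

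Restricting the cells to 1 sex was possible at 7 dpi in both sorts. With only cells that had Y-linked and no *Xist* UMIs, the same 5 genes and *Eng* were at least 2-fold lower at 7 dpi in both sorts. The log2 ratios were -2.96 and -2.82 for *Dpp4* and -2.17 and -1.68 for *Tppp3*. The share of all genes was not determined for these cells, so the count cannot be set against it. With all Pdgfra cells it was 12.3%. At 21 dpi, only the Gli1+ sort had enough *Xist*-only cells in both libraries. The log2 ratios there were -2.32 for *Dpp4*, -1.63 for *Scara5*, -1.53 for *Tppp3*, -1.46 for *Cd34* and -0.98 for *Cd55*, so *Cd55* was no longer 2-fold lower.

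The 10 genes differed in how far they set Pdgfra cells apart from endothelium. Many cells carried UMIs of both classes, from 10.2% of the Cdh5 cells in Gli1+ uninjured to 39.9% in both 7 dpi libraries. With those counted in both classes, 7, 3 and 5 of the 10 genes were at least 2-fold higher in Pdgfra than in Cdh5 cells in Gli1+ uninjured, 7 dpi and 21 dpi (10.8%, 4.15% and 10.9% of all genes), and 5, 0 and 4 in Gli1- (8.09%, 0.583% and 7.98%). None was so in all 6 libraries (0.171% of all genes). Once cells of more than 1 class were left out, *Pi16*, *Cd248* and *Scara5* were at least 2-fold higher in all 6 libraries, against 2.82% of all genes. *Scara5* then had log2 ratios of 5.67, 2.44 and 4.14 in Gli1+ and 3.86, 1.85 and 3.28 in Gli1-. *Pi16* had ratios between 2.15 and 4.77 and *Cd248* between 1.21 and 4.61. Within each sort all 3 had their lowest ratio at 7 dpi. The Cdh5 cells, mixed ones included, held 27128 and 37111 CPM of mesenchymal markers at 7 dpi in Gli1+ and Gli1-, against 5481 and 10285 CPM uninjured, and 1498 and 1660 CPM of endothelial markers against 4177 and 4995 CPM. The part of this in the lower ratios was not tested. With a stricter endothelial class of at least 3 *Cdh5* UMIs and no *Pdgfra* or *Ptprc* UMI, chosen after seeing the data, *Pi16*, *Cd55*, *Cd248* and *Scara5* were 2-fold higher in all 6 libraries (6.59% of all genes).

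**Figure D2:**
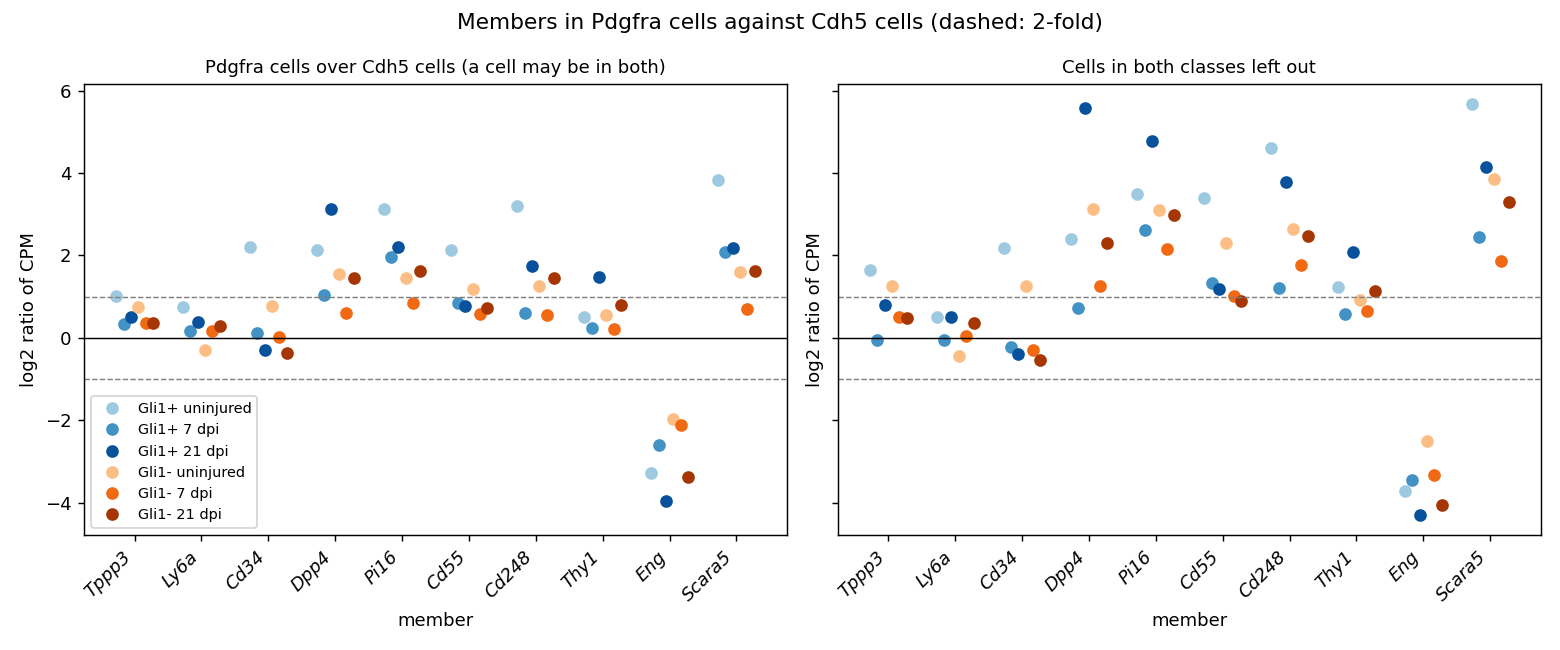
Log2 ratio of CPM in Pdgfra over Cdh5 cells (vertical axis) for each gene, 1 point per library, with all cells (left) and without cells that carried UMIs of more than 1 class (right); dashed lines mark 2-fold. *Eng* lies between -1.97 and -3.96 on the left, and *Cd34*, *Ly6a* and *Tppp3* lie near 0 in the injured libraries.

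*Eng* was at least 2-fold lower in Pdgfra than in Cdh5 cells in all 6 libraries, a pattern of 4.55% of all genes. In the single libraries 18.4%, 11.3% and 19.1% of genes were so in Gli1+ and 15.8%, 7.91% and 13.3% in Gli1-. It was at 340, 117 and 299 CPM in the Cdh5 cells of Gli1+ and at 322, 119 and 304 CPM in those of Gli1-, against 19.2 to 81.9 CPM in Pdgfra cells. *Cd34*, which endothelium also expresses, changed place with injury. Without mixed cells its log2 ratio of Pdgfra over Cdh5 cells was 2.17 and 1.26 in the uninjured libraries and between -0.54 and -0.23 in the 4 injured ones, where endothelial cells held at least as much of it. *Ly6a* was never 2-fold apart (-0.43 to 0.51).

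Leukocytes could be compared only in Gli1+ uninjured, with 3945 Ptprc cells against 3 to 33 in the other libraries. There 9 of the 10 genes were at least 2-fold higher in Pdgfra cells (27.0% of all genes were). The largest log2 ratios were 4.54 for *Scara5*, 4.29 for *Cd34*, 4.22 for *Pi16* and 4.10 for *Cd248*, and the smallest was 1.16 for *Dpp4*, at 44.3 CPM in the Ptprc cells. *Thy1* was the exception at 74.3 CPM in Pdgfra and 224 CPM in Ptprc cells, a log2 ratio of -1.59 (21.0% of all genes were at least 2-fold lower). *Thy1* is a classical T-cell antigen of the mouse. In male-type cells alone, the *Thy1* and *Eng* differences were no longer 2-fold, and *Dpp4* was no longer 2-fold higher with TMM scaling or the mean of per-cell CPM.

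Mural cells shared some of these markers as well. In cells with at least 2 *Rgs5* UMIs (a pericyte gene) and none of *Pdgfra*, *Cdh5* or *Ptprc*, *Thy1* was at 228 to 409 CPM in the 4 injured libraries, above the 79.3 to 123 CPM of the Pdgfra cells. *Tppp3* was at 155 to 334 CPM in mural cells over the 6 libraries, within 2-fold of the Pdgfra cells in both uninjured ones. After injury it was lower in Pdgfra than in mural cells by log2 ratios of -1.02 and -1.53 in Gli1+ 7 and 21 dpi and -1.17 in Gli1- 21 dpi, but by less than 2-fold in Gli1- 7 dpi (118 against 155 CPM, log2 ratio -0.40). *Cd248* was at 150 to 213 CPM in mural cells after injury, against 165 to 284 CPM. In all 6 libraries 7 of the 10 genes had a lower level in mural than in Pdgfra cells (11.3% of all genes). *Dpp4*, *Pi16*, *Cd55*, *Cd34* and *Ly6a* were so by log2 ratios of at least 1.14, *Scara5* was at 0 UMIs in the mural cells of Gli1+ 7 dpi and had log2 ratios of at least 2.36 in the other libraries, and *Cd248* came as near as 0.07. *Eng* was the 1 gene higher in mural cells in all 6 (19.4% of all genes), with log2 ratios of Pdgfra over mural cells from -1.56 to -0.73.

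The genes were next compared cell by cell. Each Pdgfra cell was thinned to 2000 UMIs, and the number of cells with both genes of a pair was divided by the number expected if detection were independent. Cells of 1 library share its depth and free mRNA, and are no replicates, so these ratios are descriptions. Of the 45 pairs, 35 were above 1 in all 6 libraries and 4 were at or above 1.5 in all 6, namely *Dpp4*-*Cd55*, *Dpp4*-*Pi16*, *Pi16*-*Cd55* and *Dpp4*-*Cd248*. Among all 31595607 pairs of genes whose expected count of cells with both was at least 4.37 in every library, the lowest value of the 45 pairs, 4.15% were above 1 in all 6 libraries and 0.00172% at or above 1.5. Those pairs were not matched to the 45 for how often their genes were detected. The number at or above 1.5 depends on the thinning, with 6 pairs at 1000 UMIs, 2 at 4000 UMIs and 0 without thinning. The share of all pairs is not given at those depths. The median pair was at 1.21 to 1.37, depending on the library.

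*Dpp4* and *Cd55* were found together 1.82, 2.64 and 2.33 times as often as independence gives in Gli1+ uninjured, 7 dpi and 21 dpi, and 2.28, 3.07 and 2.95 times in Gli1-. In Gli1- 7 dpi, 49.2% of the *Dpp4* cells had a *Cd55* UMI against 16.1% of all Pdgfra cells, on 127 cells with both. *Dpp4* and *Pi16* stood at 1.76, 2.14 and 1.89 in Gli1+ and at 2.39, 2.55 and 1.70 in Gli1-. *Dpp4* and *Scara5* ranged most, from 1.28 in Gli1+ uninjured to 3.57 in Gli1- 7 dpi, where 94 cells had both and 26.3 were expected. The ratio was under 1.5 in both uninjured libraries. It can be higher for rarer genes, and the share of *Dpp4* cells with *Scara5* was not higher after injury, at 50.6%, 16.04% and 37.6% in Gli1+ and 48.2%, 36.4% and 45.3% in Gli1-.

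**Figure D3:**
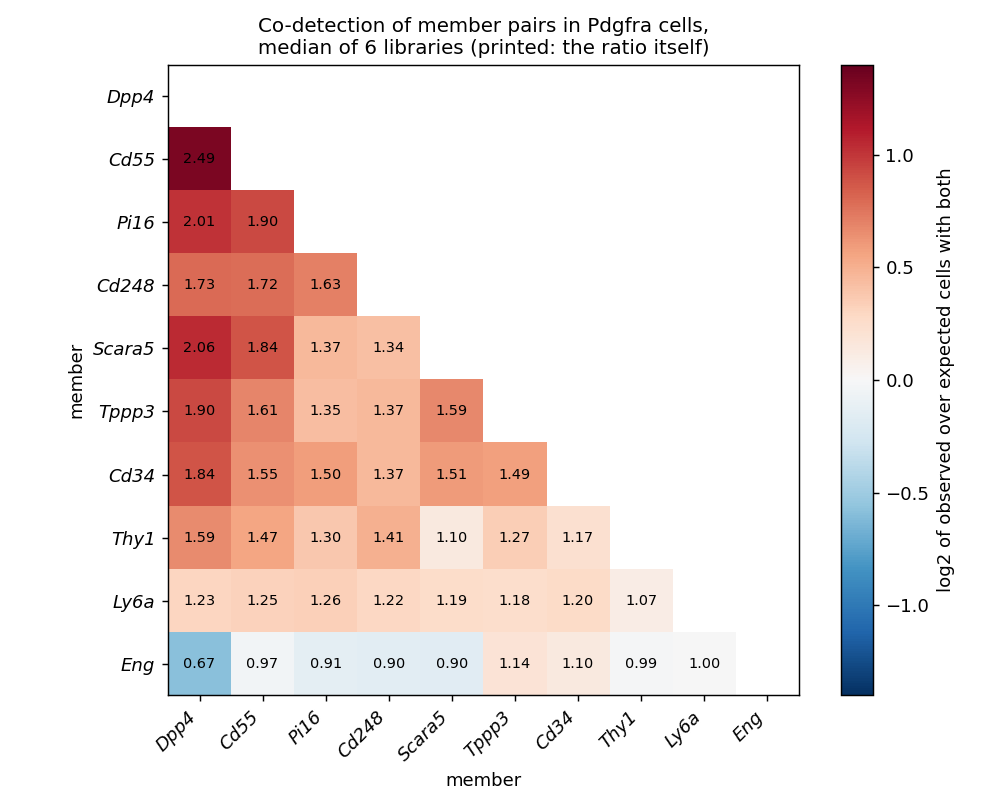
Ratio of observed to expected Pdgfra cells with both genes of a pair, as the median of 6 libraries (printed in each cell; the colour gives its log2). The highest medians are 2.49 for *Dpp4*-*Cd55*, 2.06 for *Dpp4*-*Scara5* and 2.01 for *Dpp4*-*Pi16*, and the row of *Eng* lies between 0.67 and 1.14.

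*Eng* stood outside this group. *Eng* and *Scara5* were below 1 in all 6 libraries (0.71 to 0.95), *Dpp4*-*Eng* in 5 of 6 (median 0.67) and *Cd248*-*Eng* in 5 of 6. The *Dpp4*-*Eng* counts were small, between 4 and 47 cells with both. *Ly6a*, detected in 60.3% to 76.7% of cells, was between 0.96 and 1.39 with its partners. The combination *Tppp3* with *Ly6a*, used for tendon stem cells, was held by 22.5% of Pdgfra cells in Gli1+ uninjured, 12.5% at 7 dpi and 12.7% at 21 dpi, and by 28.9%, 19.7% and 16.6% in Gli1-. It was 1.04 to 1.23 times as frequent as independence gives. The mean number of the 10 genes detected in a cell was 2.92, 1.99 and 2.35 for Gli1+, with 2.96, 2.55 and 2.51 for Gli1-. Cells with 5 or more of them made up 22.0%, 8.33% and 13.8% for Gli1+, with 17.8%, 14.1% and 15.2% for Gli1-. Cells with *Pi16* or *Dpp4* were 33.6%, 24.1% and 35.6% for Gli1+, with 27.4%, 27.8% and 37.7% for Gli1-, so this share was not lower at 21 dpi than in uninjured tendon.

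*Scx*, the transcription factor of the tenocyte lineage, was set against the 10 genes in the injured libraries, because uninjured Pdgfra cells with an *Scx* UMI were too few (under the minimum of 50). All 10 genes had a lower CPM in Pdgfra cells with than without an *Scx* UMI in all 4 libraries, as had 17.9% of all genes of at least 1 CPM and 22% of those of at least 10 CPM. *Pi16* was at 92.4 against 296 CPM in Gli1+ 7 dpi, 163 against 503 in Gli1+ 21 dpi, 140 against 372 in Gli1- 7 dpi and 226 against 530 in Gli1- 21 dpi. *Cd34* was at 114 against 238, 95.1 against 255, 124 against 327 and 132 against 274 CPM. *Pi16*, *Cd34* and *Tppp3* were at least 2-fold lower in all 4 libraries, where 3.29% of all genes were and 0.198% were higher. Library by library, 5, 9, 6 and 8 of the 10 were (14.1%, 16.4%, 15% and 18.5% of all genes). *Eng* was nearest to no difference in the first 3 libraries, with log2 ratios of -0.36, -0.66 and -0.21 whose intervals spanned 0, but was at -1.58 in Gli1- 21 dpi. Cells with *Scx* were 7.21% of the thinned Pdgfra cells in Gli1+ 7 dpi and 7.13% in Gli1+ 21 dpi, and 4.85% and 4.89% in Gli1-. With 4000 UMIs per cell only 1 gene remained 2-fold lower in all 4 libraries.

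**Figure D4:**
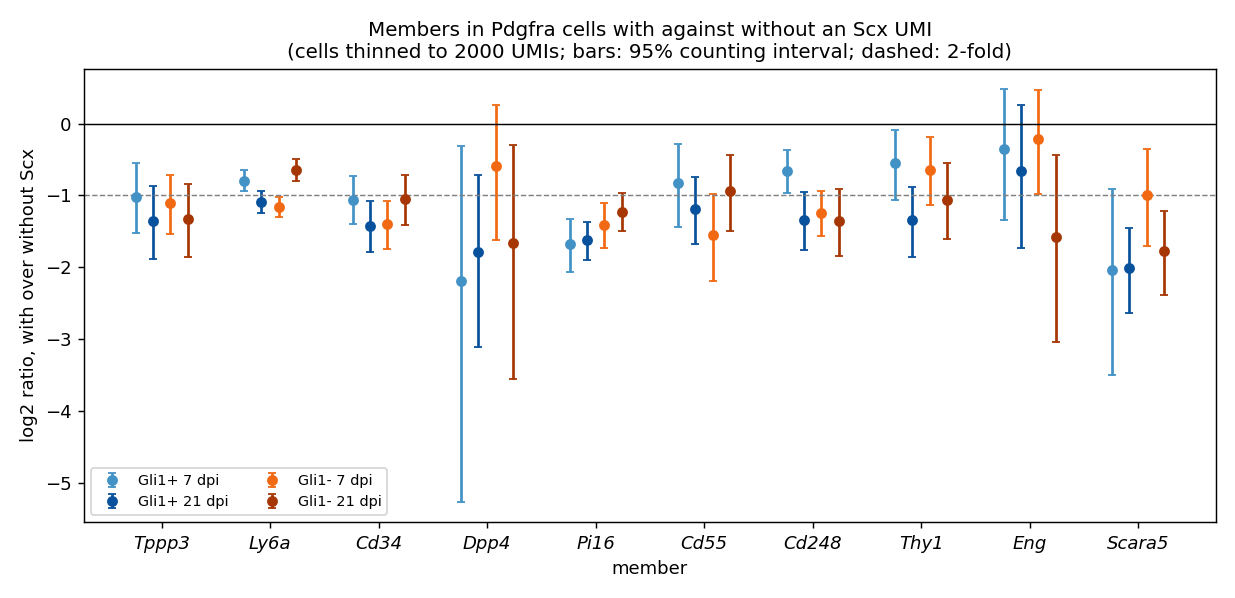
Log2 ratio of CPM in Pdgfra cells with over without an *Scx* UMI (vertical axis) for each gene in the 4 injured libraries, with 95% counting intervals; cells were thinned to 2000 UMIs. All 40 points lie below 0, and the intervals of *Dpp4* are the widest.

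To see where in the Pdgfra cells these genes were found, the cells were divided into 22 clusters from other genes, without the 10. No correction for library was made, and several clusters came almost wholly from 1 library. Cluster 2 was 99.5% Gli1+ 7 dpi, clusters 5 and 4 were 97.1% and 95.6% Gli1- 7 dpi, and cluster 3 was 90.3% Gli1- uninjured. Others were mixed, such as cluster 6, with 34.0% from its largest library. Cluster 2, led by the keratins *Krt1* and *Krt10*, held 78.5% of the Gli1+ 7 dpi cells. The part of that library's epidermal mRNA in this cluster was not tested. Cluster 1, led by *Ctla2a*, *Matn4* and *Tnmd*, held 45.8% and 45.1% of the 21 dpi cells. The uninjured cells were mostly in cluster 10 (38.4% of Gli1+; led by *Angptl7* and *Myoc*), cluster 6 (30.5% of Gli1+ and 8.86% of Gli1-; led by *Sparcl1* and *Hmcn2*) and cluster 3 (62.0% of Gli1-; led by *Rtl4* and *Inmt*). Over the 45 combinations of cluster and library with at least 50 cells, *Dpp4* ranged from 0 to 356 CPM, *Pi16* from 9.83 to 1597 CPM and *Ly6a* from 54.9 to 2237 CPM. The highest values of *Dpp4*, *Pi16*, *Cd34*, *Cd248* and *Ly6a* were all in the 157 cells of Gli1- 7 dpi in cluster 3, and those of *Tppp3* and *Cd55* in the 146 cells of Gli1+ uninjured in the same cluster.

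Within clusters that held uninjured and injured cells, the levels differed in both directions. In cluster 3, *Dpp4* was at 141 CPM in Gli1- uninjured (3172 cells) and 356 CPM at 7 dpi (157 cells), *Pi16* at 389 and 1597 CPM, *Cd34* at 609 and 890.5 CPM and *Cd55* at 270.3 and 661 CPM. In cluster 6, *Pi16* was at 109 CPM in Gli1- uninjured and 437 CPM at 21 dpi and at 295 and 674 CPM in Gli1+, whereas *Dpp4* was at 12.4 and 40.4 CPM in Gli1- and at 42.0 and 24.2 CPM in Gli1+. *Tppp3* in that cluster was at 417 and 434 CPM in Gli1+ uninjured and 21 dpi and at 372 and 398 CPM in Gli1-. *Cd34* was at 517 and 480 CPM and at 447 and 441 CPM, and *Cd55* at 142 and 144 CPM and at 114 and 131 CPM. Those 3 genes, 2-fold lower over all Pdgfra cells, were thus at nearly the same level in the cells of this cluster at 21 dpi. In cluster 10, however, *Cd34* was at 637 CPM in Gli1+ uninjured and 115 CPM at 21 dpi, and at 676, 144 and 162 CPM in Gli1- uninjured, 7 dpi and 21 dpi. *Dpp4* in that cluster was at 132 and 34.2 CPM in Gli1+ and at 120, 49.0 and 52.4 CPM in Gli1-. At 21 dpi cluster 6 held 262 cells of Gli1+ and 667 of Gli1-, and cluster 10 held 184 and 91.

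Cluster 7, led by *Sema3e*, *Hmcn1* and *Prg4*, was found at 21 dpi in both sorts (18.7% and 14.4% of Pdgfra cells). It held *Pi16* at 875 CPM in Gli1+ and 988 CPM in Gli1-, *Cd55* at 414 and 406 CPM, *Dpp4* at 91.1 and 77.0 CPM and *Cd248* at 436 and 459 CPM. These levels were at or near those of all uninjured Pdgfra cells for *Dpp4* and above them for the other 3. Cluster 5, led by *Tnn* and *Mest* and with 29.1% of the Gli1- 7 dpi cells, held little *Pi16* (45.8 CPM), *Cd55* (33.8 CPM) and *Scara5* (9.82 CPM). In cluster 13, led by the endothelial genes *Fabp4*, *Selp* and *Flt1*, *Eng* was at 435, 331 and 368 CPM in Gli1- uninjured, 7 dpi and 21 dpi. In cluster 18, led by *Rgs5*, *Thy1* was at 382 to 419 CPM in the 3 injured libraries with at least 50 such cells.

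**Figure D5:**
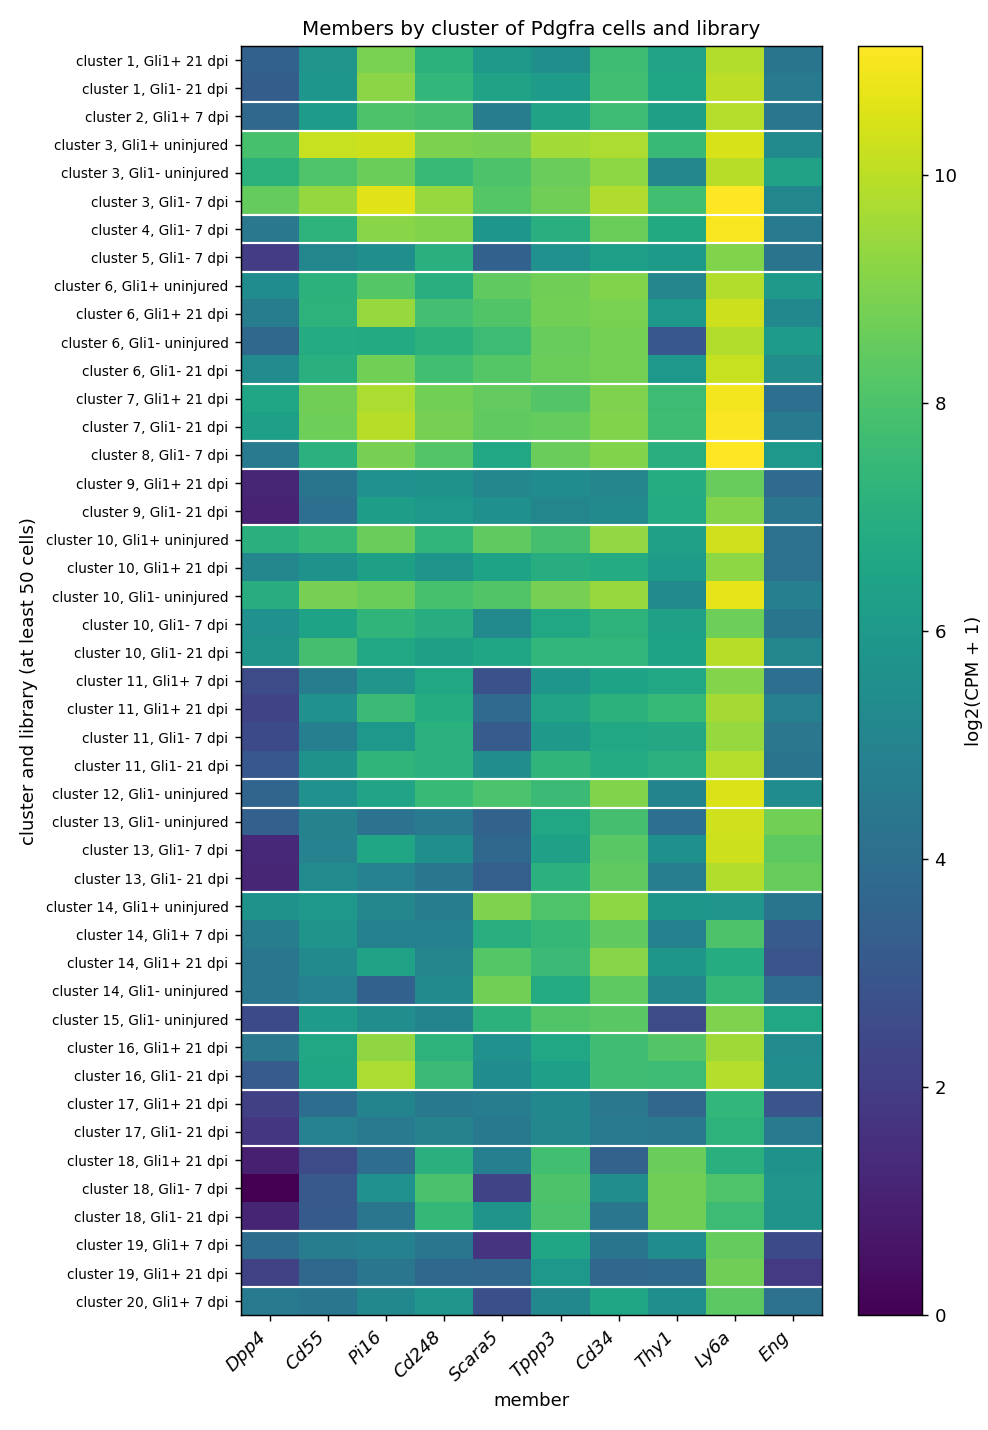
Log2(CPM + 1) of the 10 genes (columns) in each cluster and library with at least 50 Pdgfra cells (45 rows). Clusters 3 and 7 are among those high in *Dpp4*, *Cd55*, *Pi16* and *Cd248*, cluster 13 in *Eng* and cluster 18 in *Thy1*. In the 3172 Gli1- uninjured cells of cluster 3, *Pi16* (389 CPM) and *Cd248* (180 CPM) are below cluster 4 in Gli1- 7 dpi (572 and 521 CPM). *Dpp4* is also high in cluster 10 in Gli1+ and Gli1- uninjured (132 and 120 CPM).

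Over the same 45 combinations, the levels were centred within each library and correlated with those of 9141 genes of at least 10 CPM. The points share libraries and clusters, so the coefficients are descriptions with no p. *Dpp4* was most like *Cd55* (Pearson's r = 0.87), then *Dlgap4* and *Adgrd1*. *Cd55* was most like *Gm15675* (0.94), *Tgfbr2* (0.90) and *Clec3b*, and *Pi16* most like the hyaluronan synthase gene *Has1* (0.90), *Clec3b* and the collagen gene *Col14a1*. *Ly6a* was most like *Ly6c1* (0.95), a close relative in the Ly6 family whose reads may be hard to assign apart. *Cd248* was most like *Emilin2*, *Galnt16* and the microfibril gene *Fbn1*, *Cd34* like *Tshz2*, *Sqor* and *Tgfbr2*, and *Scara5* like *Gfpt2*, *Adamtsl4* and *Acadsb*. *Eng* was most like *Plvap*, a gene of fenestrated endothelium (0.83), then *Nck1* and *Taok2*. *Tppp3* (*Itih5*, 0.78) and *Thy1* (*Arhgap42*, 0.73) had the weakest best matches. Between pairs of the 10, r ran from 0.87 for *Dpp4*-*Cd55* and 0.86 for *Pi16*-*Cd55* to -0.27 for *Eng*-*Scara5*.

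The remaining genes of the adventitial programme were mostly lower after injury too. Of 20 other adventitial fibroblast genes, 13 were at least 2-fold lower in Gli1+ at 7 dpi, 13 in Gli1+ at 21 dpi, 13 in Gli1- at 7 dpi and 12 in Gli1- at 21 dpi, and 0 were 2-fold higher. Of all genes 22.1%, 22.1%, 16.1% and 16.4% were lower, and 12.7%, 7.22%, 13.1% and 11.9% were higher. Their median log2 ratios were -1.51, -1.35, -1.18 and -1.20, beside -0.21, -0.34, -0.10 and -0.13 over all genes. *Pcolce2*, an enhancer of procollagen processing, was at 509 and 39.5 CPM in Gli1+ uninjured and 7 dpi, and *Tnxb*, the gene of tenascin-X, at 746 and 80.5 CPM. The microfibril gene *Mfap5* had the highest mean log2 ratio of the list, at 738 CPM in Gli1+ uninjured and 1089 CPM at 7 dpi, with 730.1 and 1280.3 CPM for Gli1-. *Fbn1* was at 877 and 747 CPM in Gli1+ and at 519 and 1016 CPM in Gli1-. At 21 dpi the lowest were *Limch1*, at 58.1 and 8.32 CPM in Gli1+, and *Uchl1*, at 32.4 and 3.94 CPM.

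Of 10 parenchymal fibroblast genes, which mark fibroblasts within tissues and away from sheaths, 8 were at least 2-fold lower in Gli1+ at 7 dpi and 5 at 21 dpi, and 9 and 8 in Gli1-, beside the 22.1%, 22.1%, 16.1% and 16.4% of all genes. Only *Cxcl12* was higher by 2-fold, in Gli1+ at 21 dpi, beside 12.7%, 7.22%, 13.1% and 11.9% of all genes in the same order. *Hsd11b1*, which regenerates active glucocorticoid, was at 292 CPM in Gli1- uninjured and at 16.1 and 13.8 CPM at 7 and 21 dpi. *Penk*, the proenkephalin gene, was at 146 and 22.4 CPM in Gli1- at 7 dpi, and *Gpc3*, a glypican, at 140.1 and 39.6 CPM at 21 dpi. *Cxcl12*, a chemokine of stromal niches, was the exception at 264, 416 and 543 CPM in Gli1+. *Lpl*, lipoprotein lipase, was at 168, 73.1 and 216 CPM in Gli1+. Lower levels were thus also found among genes of fibroblasts away from sheaths, and the difference between the lists was not tested.

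Of 36 partners and relatives of the 10 genes, 14 were at least 2-fold lower in Gli1+ at 7 dpi and 8 at 21 dpi, and 13 and 8 in Gli1-, while 0, 1, 1 and 3 were higher. Of all genes 22.1% and 22.1% were lower in Gli1+ and 16.1% and 16.4% in Gli1-, and 12.7%, 7.22%, 13.1% and 11.9% were higher. *Tgfbr2*, the type II receptor of TGF-β with which endoglin acts, was at 233, 196 and 200 CPM in Gli1+ and at 317, 189 and 183 CPM in Gli1-. *Acvrl1*, the ALK1 receptor of the same pathway, was at 50.7, 27.5 and 25.3 CPM in Gli1-. *Itgav*, an integrin chain of the kind that binds THY1, was at 143 and 236 CPM in Gli1+ uninjured and 7 dpi and at 91.2 and 225 CPM in Gli1-. *Cd59a*, another inhibitor of complement, was higher at 21 dpi while *Cd55* was lower, at 10.5 and 23.8 CPM in Gli1+ and at 5.81 and 20.5 CPM in Gli1-. *Podxl*, a sialomucin related to CD34, was at 22.3 and 5.01 CPM in Gli1- uninjured and 21 dpi, and the leukocyte integrin gene *Itgam* at 2.25 and 0.181 CPM in Gli1+ uninjured and 7 dpi. *Cd55b*, the paralogue of *Cd55*, was at 4.62 and 0.271 CPM in Gli1+ uninjured and 7 dpi, and *Fap*, the peptidase most closely related to DPP4, was at 138, 98.0 and 114 CPM in Gli1+ and within 2-fold of uninjured in all 4 comparisons.

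Genes of tendon and cartilage were mostly higher after injury in Gli1-. Of 11 such genes, 2 were at least 2-fold higher in Gli1+ at 7 dpi and 4 at 21 dpi, and 7 and 9 in Gli1- (12.7%, 7.22%, 13.1% and 11.9% of all genes). In Gli1+ 4 were lower at 7 dpi and 1 at 21 dpi, and in Gli1- 0 at either time (22.1%, 22.1%, 16.1% and 16.4% of all genes). Before injury 10 of the 11 were at least 2-fold higher in Gli1+ than in Gli1-, with a median log2 ratio of 2.87, beside 13.8% of all genes and an all-gene median of 0.13. *Acan*, the cartilage proteoglycan, was at 2.09, 98.8 and 144 CPM in Gli1+ and at 0.596, 119 and 168 CPM in Gli1-. *Col2a1*, the collagen of cartilage, was at 38.5, 18.6 and 245 CPM in Gli1+ and at 0.745, 89.4 and 658 CPM in Gli1-. The cells of cluster 17, led by *Bglap* and *Col2a1*, held *Cd34* at 21 dpi at 21.0 and 22.7 CPM, *Pi16* at 31.5 and 22.3 CPM and *Ly6a* at 166 and 147 CPM in Gli1+ (110 cells) and Gli1- (185 cells). *Prg4*, lubricin, was at 1216 and 256 CPM in Gli1+ uninjured and 7 dpi, and *Comp*, a cartilage matrix protein, at 698 and 163 CPM. In Gli1- both were instead higher at 7 dpi, *Prg4* at 496 against 384 CPM (log2 ratio 0.37) and *Comp* at 163 against 93.8 CPM (0.79). *Sox9*, the chondrogenic transcription factor, was at 84.7 CPM at 21 dpi against 65.9 CPM in Gli1+ uninjured, and at 79.4 against 44.2 CPM in Gli1-.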

How the data were processed

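The 6 libraries (Chromium 3' v3 chemistry) were deposited as UMI counts per gene and cell barcode, not normalized; the authors' processing notes name Cell Ranger 3.1.0, STAR and mm10, while the matrix headers name Cell Ranger 9.0.0, and 32012 of 33696 gene IDs are in GENCODE M21, so the build of the counts was not settled and RefSeq GRCm38.p6 serves for the promoters only. Cells had at least 200 genes and 1000 UMIs, log10 genes per log10 UMIs of at least 0.7, and at most 5% mitochondrial and 5% haemoglobin UMIs, after the study's methods. Doublets were removed with Scrublet (scanpy 1.11.5) at 0.8% per 1000 cells, which left 7057 to 10882 cells per library, 53569196 to 107835322 UMIs. Counts were summed over the cells of a class and scaled to CPM. Intervals are 95% exact Poisson, binomial or conditional binomial. Calls were ratios of at least 2-fold among genes of at least 1 CPM in either group. Clusters came from 2000 variable genes without the members, 30 principal components and Leiden resolution 0.5. TMM factors (edgeR 4.0.16) were an alternative for the ratios. The sort was tested on the summed counts by edgeR's quasi-likelihood test with Benjamini-Hochberg adjustment and time as a block. Both sorts of a time were taken to come from the same mice, which the sex types of the uninjured pair do not bear out. The correlation across genes of the deviations of these 2 sorts from the sort means was 0.659 to 0.749. A response to time common to both sorts also raises this value, so it cannot show that mice were shared. Ratios and intervals were tested on simulated data drawn with counting error only, the model the intervals assume. That test cannot show how far pools of mice vary.

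All 10 members are named, with the 3 most similar genes of each, the 2 highest and 2 lowest genes of each list by mean log2 ratio at each time, and partner genes described. The members and lists were chosen with earlier results of these data known. The planned comparison with Ptprc cells could use 1 library and that of *Scx* 4 libraries, since the others had under 50 such cells.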

Additional observations from a re-analysis of the deposited data

Results flagged for a closer look

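*Ly6a* moved in opposite directions in the sorts at 7 dpi. Its log2 ratio to uninjured was -0.22 in Gli1+ and 0.25 in Gli1-, on 47127 and 105954 UMIs at 7 dpi. With 1 library per group the difference between the sorts was not tested, and both values were above 0 with TMM scaling.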

How the results depend on the processing

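Of 104 alternative values of 14 counts, 92 stayed within 1.5 times the main count, 12 moved, and 0 reversed. Of 1050 alternative values of 141 single values, 464 stayed within the interval or spread of the main value and 586 moved beyond it, with 0 changes of sign among values of at least 2-fold. The 5 genes lower at 7 dpi in both sorts were 3 with TMM factors and 2 with the mean of per-cell CPM, and the 5 lower at 21 dpi were 2 with either, while TMM made 1 gene (*Thy1*) higher at 21 dpi in both sorts. With at least 2 *Pdgfra* UMIs, 4 genes were lower at each time. The count of genes 2-fold higher in Pdgfra than in Cdh5 cells in all 6 libraries went from 0 to 3 without mixed cells, 4 with the mean of per-cell CPM and 4 against cells with at least 3 *Cdh5* UMIs and no *Pdgfra* or *Ptprc* UMI, an alternative chosen after seeing the data. The 1 gene lower than in Ptprc cells (*Thy1*) became 0 in male-type cells, and the 9 higher became 8 there (without *Eng*) and with TMM or the mean of per-cell CPM (without *Dpp4*). The 4 co-detected pairs were 2 with 4000 UMIs per cell and 0 without thinning. The 3 genes lower with *Scx* were 1 with 4000 UMIs. In each case the cause was not tested. Shares of all genes under the alternatives are given only for the counts against Cdh5 cells without mixed cells and against the stricter Cdh5 class. Of the 30 most similar genes, 20 were shared without centring and 19 at Leiden resolution 1.0.

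Restriction to 1 sex left too few cells in some libraries for the counts over both sorts at 21 dpi, all 3 times of the sorts, all 6 libraries of Cdh5 cells and co-detection, and the *Scx* split. In the libraries that had the cells, 7 pairs were at or above 1.5 in all 3 with *Xist*-only cells and 4 in all 4 with Y-only cells. The share of all pairs is not given for these cells. The *Eng* difference between the uninjured sorts was no longer 2-fold in Y-only cells. *Cd55* was no longer 2-fold lower in Gli1+ at 21 dpi in *Xist*-only cells. With the 3 Gli1+ and Gli1- pairs fitted with time as a block, 0 of the 10 genes were called higher and 0 lower, as without the block and as without TMM factors; 1476 of all genes had an unadjusted p under 0.05 with the block and 538 without it. The other counts come from no test over samples, so they were not fitted with a block, and no library was left out. Depth limits the *Dpp4* and *Eng* co-detection counts and the *Scx* split, and UMIs of fibroblast genes in epidermal cells limit what low levels show in Gli1+ 7 dpi.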
